A study of Mus musculus with 6 samples.

Results

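The cells described here were GFP-positive stromal-vascular cells sorted from the white fat of adult mice on normal chow, which the study calls adipose progenitors, at baseline and without drug. They comprise 3 of the 6 arrays of the series, and only these 3 arrays enter the values below. The members were probes that the authors' detection p-value put below 0.05 on all 3 arrays, which held for 13496 of 45281 probes (29.8%), and each gene was then ranked by its median normalized intensity and by its spread between the 3 arrays. Of 19057 genes with a named probe, 8421 (44.2%) had at least 1 such probe, and 187 of those carry only a clone or predicted name and are counted but not named.

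The mice were AdipoTrak animals of the genotype PPARgamma-tTA;tetO-H2B-GFP, 2 to 6 months old, whose reporter pairs a transactivator (tTA) under control of Pparg regulatory DNA with a tetO-driven histone fused to GFP, which labels nuclei green. The untreated mice ate normal chow over the 2 months in which the other group of the series received rosiglitazone. Inguinal, interscapular and gonadal white fat was digested for 2 hours at 37 degrees with collagenase, GFP-positive cells were collected by flow cytometry, and their RNA was hybridised as biotin-labelled cRNA to an Illumina mouse bead array. Each array stands for a cohort of 3 to 4 mice, called a pool below, so the 3 depots and the single animals of a pool cannot be told apart. The reporter marks cells in which the Pparg promoter is or was active, and any other cell that passed the sort is part of the same RNA. In such bulk RNA, fewer cells of a type and less RNA per cell cannot be told apart.

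Adipose progenitors are mesenchymal cells of the vessel-rich stroma of fat. They carry the platelet-derived growth factor receptor alpha, lay down a collagen-rich matrix, and become fat-storing cells when the nuclear receptor PPARgamma and the C/EBP factors switch on the adipocyte programme. The stroma around them also holds macrophages, endothelial cells, mural cells and blood cells.

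Intensity values are the authors' normalized values on a linear scale, given in the order pool 1, pool 2, pool 3. No background had been subtracted, so the fold between pools of a dim probe is compressed. The median over all probes, detected or not, was 95.5 units in each pool. A gene is represented by its brightest detected probe. Probes differ in how well they bind their target, so the rank of a probe gives its brightness and not the abundance of a transcript relative to other transcripts. With 1 array per pool there is no test between pools, and no p-value is given. The spread between arrays covers both the differences between cohorts and the technical error.

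Total intensity before normalization was 14510640, 9478692 and 14831319 units, lowest in pool 2, and detected probes numbered 16698, 15492 and 17379. Across the 13496 detected probes, Pearson correlations of log2 intensity were 0.989 between pools 1 and 2, 0.985 between pools 1 and 3 and 0.981 between pools 2 and 3. The values share a normalization and a probe set, so the correlations are descriptive. Pool 3 stood apart from the rest in one respect. Of the 112 detected probes that differed over 2-fold between the highest and the lowest pool (0.83% of 13496), pool 3 was the farthest from the 3-pool mean for 90, pool 1 for 12 and pool 2 for 10. Without pool 3, only 20 probes exceeded 2-fold. With normexp background correction and quantile normalization of the non-normalized values, 2 steps changed together, the count over all 3 pools was 559.

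The brightest probes belonged to the protein synthesis machinery, to the lipase gene Lpl, to secreted stromal proteins and to genes of stress and inflammation. Among the 25 brightest named genes, 12 encode cytosolic ribosomal proteins with symbols starting Rpl or Rps. Rplp1, an acidic ribosomal stalk protein, read 37933, 37933 and 37933 units and was the brightest gene in each pool. Eef1a1, the elongation factor that brings aminoacyl-tRNA to the ribosome, read 27174, 28212 and 30410.2. The gene ranked second was Lpl, lipoprotein lipase, the enzyme that releases fatty acids from circulating triglyceride, at 30410.2, 31406 and 27174. Its lowest value was in pool 3, and the highest pool stood 1.16-fold above it. Lpl had 2 probes on the array, and only this 1 was detected in all 3 pools.

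Serpinf1, which encodes the secreted anti-angiogenic factor PEDF, came next at 29649.8, 32589 and 29649.8. Spon2, a secreted matrix protein, read 17402, 21164 and 15645, and Rnase4, a secreted ribonuclease, read 18933, 19300.1 and 17055. Pool 2 was the highest for all 3 genes, by at most 1.35-fold over the lowest pool. Each of the 3 had 2 probes on the array, and only 1 was detected in all 3 pools. Plpp3, a membrane enzyme that dephosphorylates lysophosphatidic acid, had the largest spread of the 25, at 15459.8, 19559 and 21983, lowest in pool 1 and highest in pool 3.

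The rest of the 25 brightest were genes of metal handling, lysosomes and acute response. Mt1, the zinc- and copper-binding metallothionein, read 25189, 20873 and 25189, and Fth1, the ferritin heavy chain, read 22372, 23199 and 23199. Itm2b, an integral membrane protein, had the same value of 24063 units in each pool, and Psap, the precursor of the lysosomal saposins, read 18065, 18428 and 21421. Cxcl1, a chemokine that attracts neutrophils, read 22853, 22853 and 19559. Lyz1, a lysozyme gene, read 21983, 19936 and 22642. Its probe cannot be assumed to separate it from the near-identical Lyz2, the myeloid lysozyme. Egr1, a transcription factor induced within minutes of a stimulus, read 14885, 17055 and 18310.0.

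**Figure D1:**
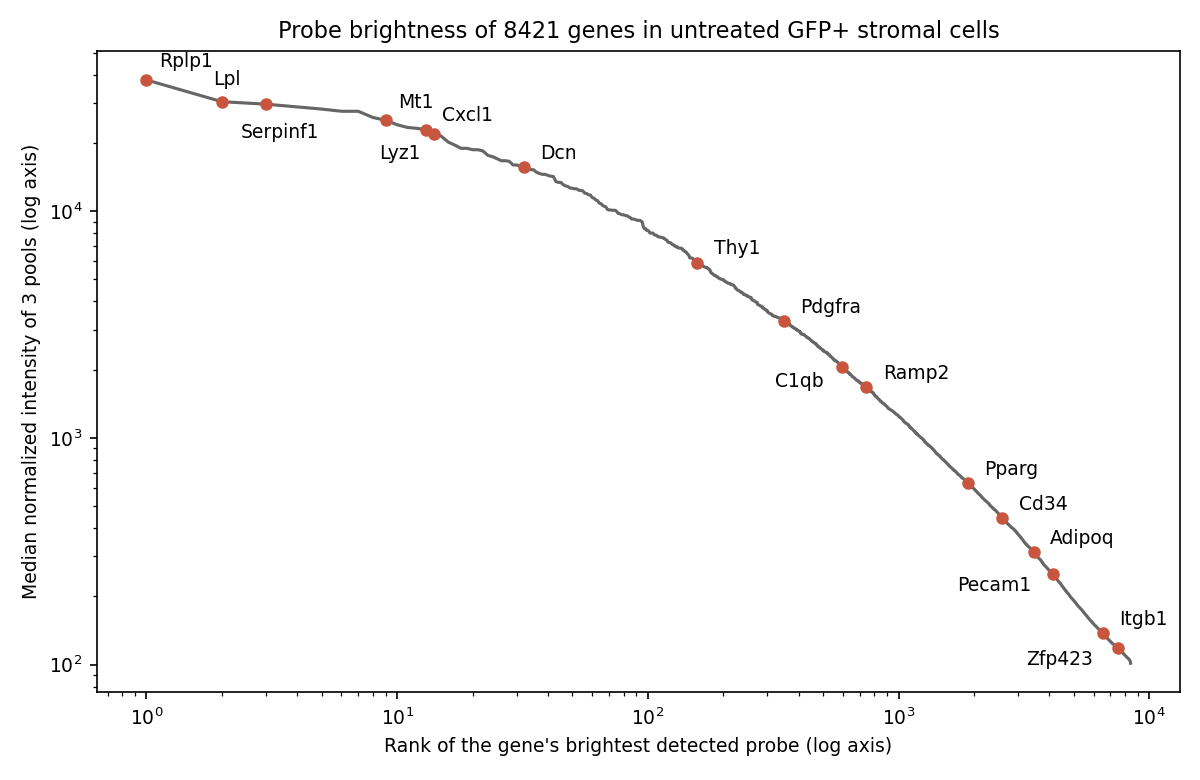
Median normalized intensity over the 3 untreated pools (vertical axis, log) of the brightest detected probe of each of 8421 genes against its rank (horizontal axis, log) and with selected genes marked. Lpl and Serpinf1 stand at ranks 2 and 3, Pdgfra at rank 348 and Pparg at rank 1890, and the median gene reads 243.5 units.

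The brightness of the detected genes spanned a wide range. The median gene read 243.5 units, and the brightest 10%, 843 of 8421 genes, began at about 1462 units. In all, 1713 detected probes exceeded 1000 units and 128 exceeded 10000 units.

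The fraction was described with 17 surface markers and 12 regulators of adipose progenitors. The share of a list that was detected cannot test the label of the fraction, because it was also high for some lists of other kinds. Macrophage markers were detected for 15 of 20, endothelial markers for 14 of 18 and chemokines and cytokines for 26 of 26. It was low for others, such as T and NK cell markers, at 3 of 13. Of the 16 surface markers with a named probe, 14 were detected in all 3 pools (87.5%, against 44.2% of all genes), and 6 lay in the brightest 10%. Thy1, a surface glycoprotein of mesenchymal stroma, was the brightest at 5919.9, 6983 and 5124. Pdgfra, the receptor that defines fat mesenchymal progenitors, read 3272, 3114 and 5082, with pool 3 1.63-fold above pool 2 and pools 1 and 2 close together. Pi16, a marker of the fascial and adventitial progenitor state, read 2748, 3213 and 2291, and Cd9, a tetraspanin, read 2078, 2437 and 1895. For Thy1, Pi16 and Cd9 the order of the pools was the opposite of that for Pdgfra, with pool 2 highest and pool 3 lowest.

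The adhesion receptors Vcam1 and Icam1 read 2032, 1699 and 1297 and 2090.2, 1462 and 1664, both highest in pool 1. Dpp4, a peptidase that marks early interstitial progenitors, read 897, 1199 and 1087, and Cd55, a complement-regulating protein found on the same cells, read 861, 764 and 542. Cd44, the hyaluronan receptor, read 983, 1354 and 896. Cd34, a sialomucin shared by progenitors and endothelium, read 443, 426 and 511, and Eng, a TGF-beta co-receptor, read 424, 385 and 398. Pdgfrb, the platelet-derived growth factor receptor that also marks mural cells, read 383, 420.5 and 354. Eng and Pdgfrb differed between pools by at most 1.19-fold.

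Dlk1, which encodes the preadipocyte factor Pref-1, was dim at 166, 198 and 263 and highest in pool 3, as was its second detected probe at 104, 105 and 143 units. Itgb1, the integrin beta-1 chain, was also dim at 138, 132 and 137. Cd24a and F3, a progenitor surface antigen and tissue factor, were detected in 0 pools, and Ly6a, which encodes Sca-1, had no named probe used here. None of the 14 detected surface markers exceeded 2-fold between pools, where 0.701% of all detected genes did. A total of 5 exceeded 1.5-fold, namely Pdgfra, Vcam1, Cd44, Cd55 and Dlk1, where 5.69% of all detected genes did.

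Of the 12 regulators, 10 were detected in all 3 pools (83.3%, against 44.2% of all genes). Of these, 0 exceeded 1.5-fold, where 5.69% of all detected genes did. Klf4, a zinc-finger factor of mesenchymal and stress programmes, was the brightest at 1897, 1394 and 1667. Ebf2, a factor that marks beige and brown precursors, read 726, 709.6 and 988, and Ebf1, which acts in adipocyte commitment, read 311, 345 and 333. Tcf21, a factor of visceral fat stroma, read 765, 620.2 and 664, and the mesenchymal factors Twist1, Twist2 and Prrx1 lay between 456 and 651 units in every pool. Zfp521, a repressor of Zfp423 and Ebf action, read 478, 420.1 and 463, and Meox2, a mesenchymal homeobox factor, read 203, 229 and 267. Zfp423, which commits cells to the preadipocyte fate, was close to the detection limit at 135, 118 and 117, and its second probe was detected in 2 of 3 pools. Tbx15 and Gli1 were detected in 0 pools.

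**Figure D2:**
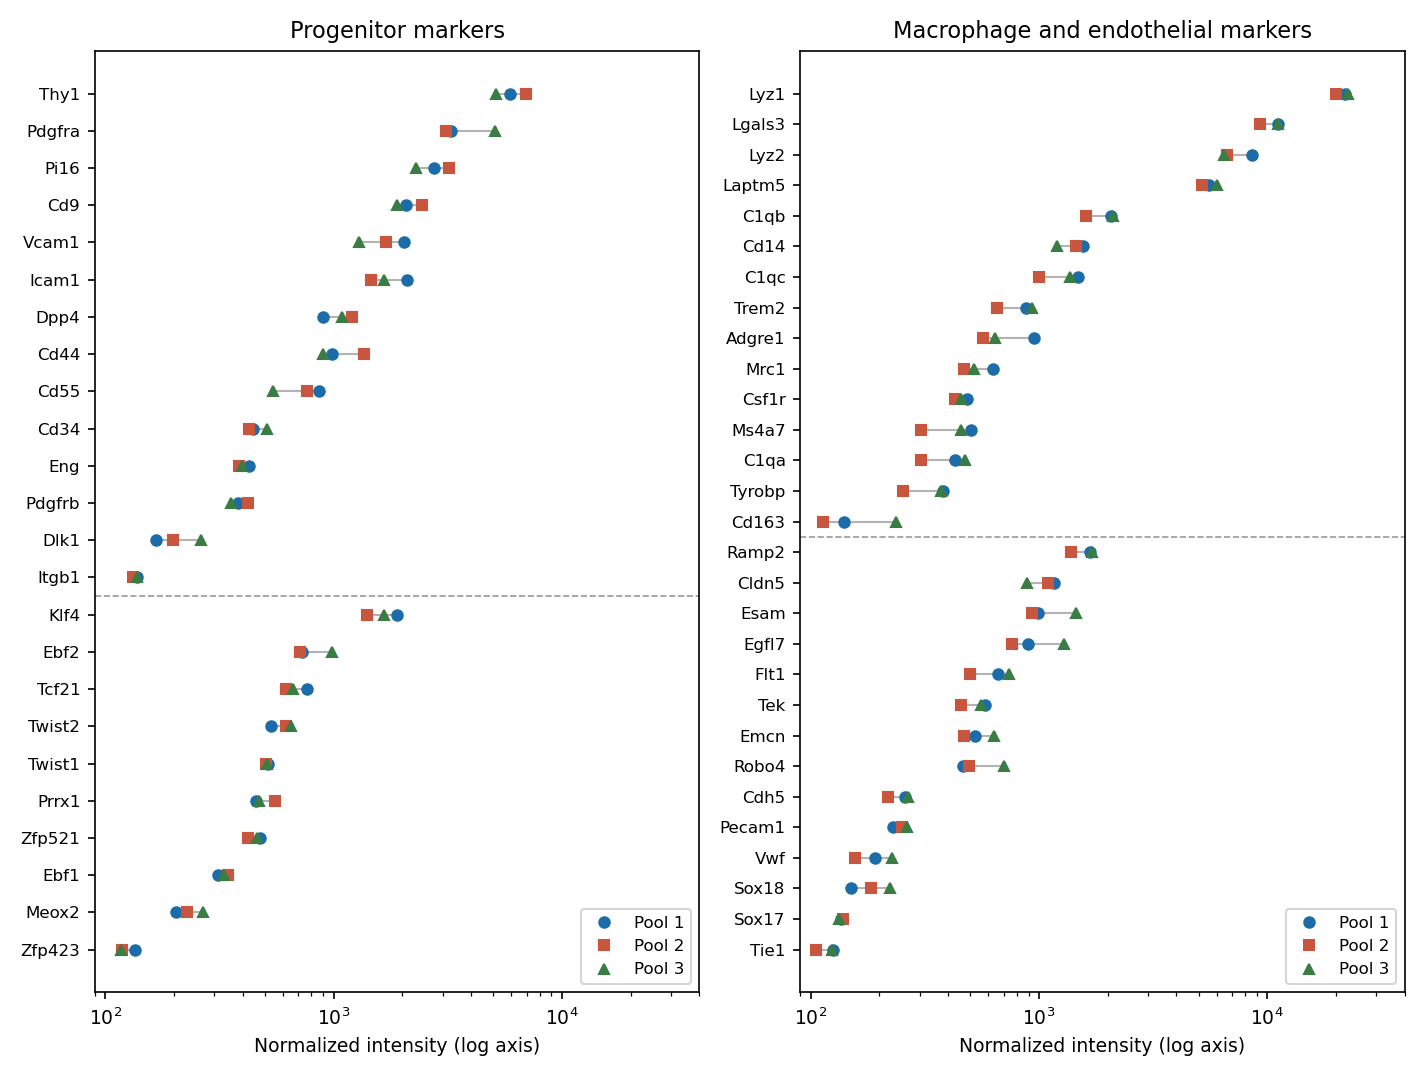
Normalized intensity (horizontal axes, log) of every detected progenitor surface marker and regulator (left, above and below the dashed line) and of every detected macrophage and endothelial marker (right, above and below the dashed line) in pools 1, 2 and 3. The 3 pools of a progenitor marker lie within 1.63-fold of each other, and pool 2 (squares) is the lowest for 13 of 15 macrophage and 9 of 14 endothelial markers.

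Pparg, whose promoter drives the reporter, was detected in each pool. Its brightest probe read 631, 594 and 639, a spread of 1.08-fold between the highest and the lowest pool. A second probe read 149.9, 107 and 112 units, and another was detected in 0 pools. Of 16 adipogenic transcription factors, 11 were detected (68.75%, against 44.2% of all genes). Cebpb, an early factor of adipogenesis, was the brightest at 5497, 5474 and 7114. Nr1h3, the oxysterol receptor LXR-alpha, read 941, 1079 and 1254, and Rxrb, a partner of PPARgamma, read 568, 684 and 644, while Ebf3 read 532, 664 and 658. Cebpd, which acts together with Cebpb early in differentiation, read 348, 269.7 and 291. Klf5, a factor that activates Pparg, read 228, 298 and 203 and had the largest spread of the list. The late factor Cebpa and the partner Rxra were each detected in 1 pool, and Klf15, Stat5b and Nr3c1, the glucocorticoid receptor, in 0.

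Of 13 genes that restrain adipogenesis, 11 were detected (84.6%, against 44.2% of all genes). Sox9, which keeps progenitors undifferentiated, read 1848, 2137 and 2078, and Hes1, a Notch target, read 767, 1003 and 1003, and both were lowest in pool 1. Ddit3, the stress factor CHOP, read 678, 882 and 735. Klf2, a repressor of Pparg, read 968, 934 and 1738, with pool 3 highest. Wwtr1, the Hippo co-activator TAZ, which represses PPARgamma, read 711, 448 and 501, with pool 1 highest. Gata3 and Foxc2 were each detected in 1 pool.

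Of 18 markers of mature adipocytes with a named probe, 9 were detected in all 3 pools, a share near the 44.2% of all genes, and only Lpl lay in the brightest 10%. Pnpla2, adipose triglyceride lipase, read 899, 999 and 1206. Adipoq, which encodes adiponectin, read 313, 205 and 329, lowest in pool 2. Car3, a carbonic anhydrase abundant in fat cells, read 339, 270.1 and 616, and Plin4, a lipid-droplet coat protein, read 252, 228 and 471, and both exceeded 2-fold with pool 3 highest. Lep, leptin, stayed near the detection limit at 115, 118 and 111. The fatty acid chaperone gene Fabp4 was detected in 0 pools on its 1 probe, which read 92.9, 92.0 and 91.3 units, and Cd36, a fatty acid transporter, in 0 pools at 93.7, 96.7 and 92.5 units. Plin1, Retn, Pck1 and Cidea were also detected in 0 pools. Each of these values rests on few probes, and what a probe of Fabp4 or Cd36 would read in fat cells was not analysed here.

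Of 12 brown and beige fat genes, 3 were detected, where 44.2% of all genes were. They were Cox8b at 196, 129.8 and 182, Cox7a1 at 154, 159 and 156, both subunits of cytochrome oxidase, and Ppargc1b, a co-activator of mitochondrial genes, at 121, 138 and 139. Ucp1, the uncoupling protein, was detected in 1 pool.

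Genes of the extracellular matrix were prominent among the bright probes. In the matrix lists below, counts of detected genes are to be read against the 44.2% of all genes that were detected. Of 18 fibrillar and basement membrane collagen genes with a probe, 17 were detected and 11 lay in the brightest 10%. Col6a1, a chain of microfibrillar collagen, read 15358, 18310.0 and 13509.8. Col4a1 and Col4a2, the basement membrane chains, read 12619, 12548 and 9636 and 6018, 5894 and 5903, and Col5a1, which sets fibril diameter, read 7841, 9250.3 and 6387. Col4a2 differed by only 1.02-fold between pools. Col3a1, a fibrillar collagen of loose tissue, read 3948, 2820.4 and 1925 and differed 2.05-fold, with pool 1 highest and pool 3 lowest. Of the 17, 10 were lowest in pool 3, where 35.4% of all detected genes were, and 1 was highest there.

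The small leucine-rich proteoglycans that organise collagen fibrils were detected for 9 of 10. Dcn, decorin, read 16527, 15645 and 14885, Lum, lumican, read 11805, 14534 and 9148, and Bgn, biglycan, read 10509, 9566 and 10984. Ogn, osteoglycin, read 4165, 3182 and 4361. Lumican alone of these 4 exceeded 1.5-fold, with pool 2 highest and pool 3 lowest.

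Elastic fibre and matricellular genes were detected for 18 of 22, with 10 in the brightest 10%. Sparc, a collagen-binding matricellular protein, read 12649, 13273 and 10233, and Loxl1, an elastin cross-linking enzyme, read 11972, 14662 and 12548. Fbln2, a fibulin, read 4235, 4289 and 4419.5, while Fbln1, its relative, read 2793, 2397 and 5390.2, with pool 3 2.25-fold above pool 2. The microfibril-associated genes Mfap5 and Mfap4 read 4347, 5903 and 3195 and 477, 753 and 329, with pool 2 highest and pool 3 lowest. For Fbln1, 1 of 5 detected probes exceeded 2-fold. Sparc had 3 detected probes, whose differences between pools ran from 1.30-fold to 3.94-fold, so they did not agree.

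Proteases and their inhibitors were detected for 17 of 18, with 12 in the brightest 10%. Serping1, the inhibitor of complement C1, read 17634, 16696 and 15989, Mmp2, a gelatinase made by stromal cells, read 15240.1, 14885 and 15358, and Timp2, its inhibitor, read 12345, 12304 and 13273. Mmp2 differed between pools by 1.03-fold. Timp1, another metalloproteinase inhibitor, read 6033, 5032 and 3143, lowest in pool 3, and Mmp12, the macrophage elastase, read 849, 490.0 and 611, highest in pool 1.

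Markers of other cells were also present in the sorted fraction. Of 20 macrophage markers with a named probe, 15 were detected in all 3 pools, and 5 lay in the brightest 10%. The 15 summed to 56739.5, 48255 and 55072 units. Most of that sum in each pool came from Lyz1, Lgals3 and Lyz2, and the probes of Lyz1 and Lyz2 may share signal. After Lyz1, Lgals3, galectin-3, read 11137, 9298 and 11137, Lyz2, the myeloid lysozyme, read 8555, 6667 and 6495, and Laptm5, a lysosomal protein of leukocytes, read 5564, 5190.0 and 6049. The complement C1q chains C1qa, C1qb and C1qc read 431, 304 and 475, then 2062, 1607 and 2102, then 1481, 1005 and 1371. Adgre1, which encodes F4/80, read 952, 570.4 and 641, Csf1r, the receptor for macrophage colony-stimulating factor, read 485, 429 and 455, and Trem2, a lipid receptor, read 878, 657 and 928.

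Pool 2 was the lowest for 13 of the 15 macrophage genes, where 31.5% of all detected genes were lowest in it, and the highest for 0. The median log2 deviation of the list from the 3-pool mean was 0.12, -0.25 and 0.11, against -0.0067, 0.0074 and -0.00085 over all detected genes. With pool 2 left out, the value of pool 3 was -0.015. The 2 exceptions were Lyz2 and Cd14, the co-receptor for endotoxin, which were lowest in pool 3. Cd163, a scavenger receptor, was the 1 macrophage gene over 2-fold, at 139, 113 and 236, with pool 3 over pool 2 by 2.08-fold. Itgam and Cd5l were detected in 0 pools. Pool 2 also had the lowest total intensity and the fewest detected probes, and the part of these in the macrophage values was not tested.

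Genes of MHC class II presentation were detected for 8 of 12 (66.7%, against 44.2% of all genes). H2-Ab1, Cd74 and H2-Eb1, which encode a class II beta chain, the invariant chain and a second beta chain, read 11482, 9423 and 9423, then 8515, 6770.3 and 9593, then 7214, 7214 and 8588. H2-Aa, an alpha chain, read 2623, 1744 and 1736, and H2-DMb1, part of the peptide-loading complex, read 731, 604 and 1102. Of the 8, 0 were highest in pool 2, where 36.6% of all detected genes were. The dendritic cell markers Flt3, Cd209a and Xcr1 were detected in 0 pools, and Zbtb46 at 143, 134 and 128.

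Of 18 endothelial markers, 14 were detected (77.8%, against 44.2% of all genes), at a summed intensity of 8029, 7148 and 9211 units. Ramp2, the adrenomedullin co-receptor, read 1671, 1385 and 1708, Cldn5, an endothelial claudin, read 1158, 1094 and 890.3, and Esam, a junctional adhesion molecule, read 986, 936 and 1453. Egfl7, a secreted endothelial factor, read 894, 763 and 1288, with pool 3 1.69-fold above pool 2. Pecam1 and Cdh5, defining junction proteins, were dim at 229, 250.2 and 265 and 259, 218 and 267, as was Vwf, von Willebrand factor, at 192, 156 and 228. Pool 3 was the highest for 10 of the 14, where 34.8% of all detected genes were highest in it. Kdr, the VEGF receptor, was detected in 1 pool, and Erg and Prox1 in 0.

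Mural cell markers were detected for 9 of 13 (69.2%, against 44.2% of all genes), at a summed intensity of 2854, 3518 and 6003 units. Acta2, smooth muscle actin, was the brightest at 1022, 1729 and 4133, with pool 3 4.05-fold above pool 1 and pool 2 between them. Without Acta2 the other 8 members summed to 1833, 1789.6 and 1869.8 units, so the difference in the sum rested on that gene. Rgs5, a pericyte marker, read 382, 343 and 319, Notch3 308, 304 and 234 and Myl9, a myosin light chain, 301, 326 and 388. Myh11, smooth muscle myosin, was dim at 131, 118 and 189.5 and highest in pool 3. Tagln was detected in 1 pool and Cnn1 in 0.

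The remaining marker lists are to be read against the 44.2% of all genes that were detected. T and NK cell markers were detected for 3 of 13, with Cd3e, Cd3g, Cd4 and Cd8a in 0 pools, although the brightest probe of Cd8b1 read 1129, 1485 and 926. The other 2 Cd8b1 probes were detected in 0 pools. The B cell list had 1 detected gene of 6, Cd79b, at 109, 104 and 101. Neutrophil genes were detected for 3 of 11, led by S100a8, a calcium-binding alarmin, at 293, 283 and 138, where pool 3 was the lowest. Mast cell genes were detected for 3 of 10, with Hdc, histidine decarboxylase, at 305, 329 and 604 and the proteases Cma1, Tpsb2 and Tpsab1 in 0 pools. Mesothelial markers were detected for 4 of 9 (Msln in 0 pools), Schwann and neural markers for 3 of 9 (Sox10 and S100b in 0), skeletal muscle markers for 3 of 12 (Ckm in 0) and epithelial markers for 2 of 16 (Epcam in 0). Xist, the transcript of the inactive X chromosome, read 1609, 1747 and 1551, and the Y-linked genes Kdm5d and Uty were detected in 0 pools, with Eif2s3y in 1.

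The largest difference between the pools was in the haemoglobin genes, which encode the oxygen carrier of red blood cells. Hba-a1, alpha-globin, read 4203, 16771 and 921, Hbb-bs, a beta-globin, read 3388, 12649 and 826, and Hbb-bt, the second adult beta-globin, read 3979.9, 15118 and 815. Pool 2 was the highest and pool 3 the lowest for each, by 18.2-fold, 15.3-fold and 18.6-fold. All 6 detected probes of Hbb-bs showed the difference, by 7.89-fold to 24.8-fold, and 3 of 4 of Hbb-bt did. The beta-globin genes are near-identical, so their probes cannot be taken as separate measurements of each. Of the 7 detected red cell and platelet genes, 6 were highest in pool 2, where 36.6% of all detected genes were, but the others differed less. The beta-globin gene Hbb-b2 was detected in 2 pools, at 115, 122 and 99.3 units. Alas2, the erythroid enzyme of haem synthesis, read 115, 162 and 100.4, and the platelet genes Pf4 and Itga2b read 588, 375 and 419 and 239, 347 and 257. Slc4a1, the red cell anion exchanger, was detected in 1 pool. Red blood cells in the sorted material were not measured in any other way, and their part in these values was not tested.

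The proximal promoters of the 3 globin genes are shown because these genes had the same order of pools, and the promoter of Cxcl1 because it was the brightest chemokine gene. Each is 150 bases upstream of the RefSeq transcript start in GRCm38.p6, printed 5′ to 3′ on the gene's strand. Capitals mark the letters TATAA (the TATA box), CCAAT (bound by NF-Y), CACCC (bound by Krueppel-like factors) and AGATAA (bound by GATA factors) and the kappaB site where they were found on either strand, and the reverse of CCAAT reads ATTGG.
Hba-a1 (chr11:32283522-32283671, plus strand): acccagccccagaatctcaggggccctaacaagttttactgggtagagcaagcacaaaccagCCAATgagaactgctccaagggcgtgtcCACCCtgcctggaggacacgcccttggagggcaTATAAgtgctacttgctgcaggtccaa
Hbb-bs (chr7:103827929-103828078, minus strand): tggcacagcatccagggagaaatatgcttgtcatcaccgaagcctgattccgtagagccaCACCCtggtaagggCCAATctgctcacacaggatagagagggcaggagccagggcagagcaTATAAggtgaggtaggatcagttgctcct
Hbb-bt (chr7:103813924-103814073, minus strand): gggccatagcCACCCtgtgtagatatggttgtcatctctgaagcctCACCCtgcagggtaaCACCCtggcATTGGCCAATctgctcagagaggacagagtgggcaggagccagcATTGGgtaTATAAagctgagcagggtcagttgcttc
Cxcl1 (chr5:90891095-90891244, plus strand): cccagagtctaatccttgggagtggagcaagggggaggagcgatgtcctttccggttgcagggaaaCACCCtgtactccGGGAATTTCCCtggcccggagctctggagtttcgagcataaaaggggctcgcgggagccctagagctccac

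Each globin promoter held TATAA, first base 27, 29 and 28 bases upstream of the start in Hba-a1, Hbb-bs and Hbb-bt, together with at least 1 CCAAT and 1 CACCC. Of 32851 promoter windows of the same length, 14.2% held TATAA, 24.5% CCAAT and 37.4% CACCC, and 1.1% held all 3. AGATAA was in 5.65% of windows and in 0 of the 4 shown. The Cxcl1 window held a kappaB site, the letters bound by NF-kappaB, from 71 to 62 bases upstream, and a second, overlapping match on the other strand from 70 to 61 bases upstream. Such a site was in 4.6% of windows. The Cxcl1 window also held 1 CACCC, from 84 to 80 bases upstream. These are matches of letters only, and a letter match is not evidence of binding.

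**Figure D3:**
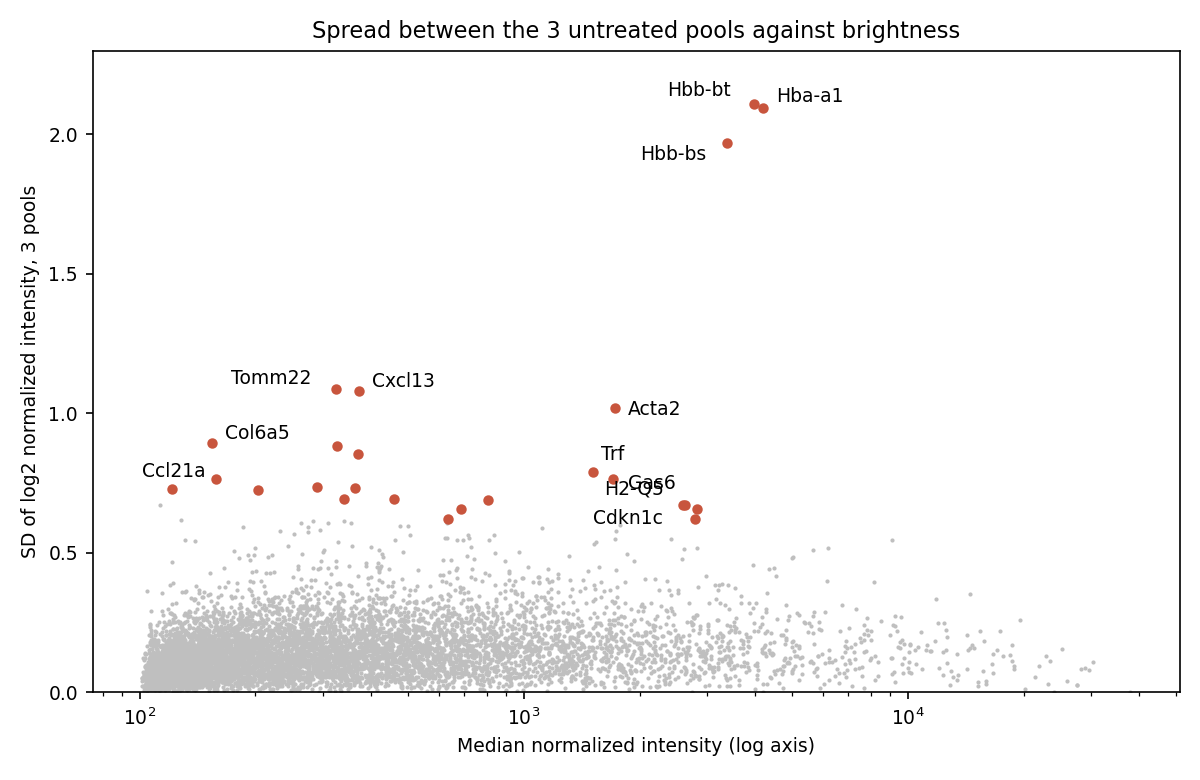
SD of log2 normalized intensity over the 3 pools (vertical axis) against median normalized intensity (horizontal axis, log) for 8421 detected genes (grey), with the 25 named genes of largest spread in red. The 3 haemoglobin genes lie at SDs of 1.97 to 2.11, and no other gene exceeds 1.09.

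Spread between pools was small for most probes. The median SD over the 13496 detected probes was 0.12 on the log2 scale, the median probe differed 1.18-fold between its highest and lowest pool, and 57.5% stayed under 1.2-fold. The median SD was 0.066 in the dimmest 10% of probes and 0.15 in the brightest 10%. In the 25 genes of largest spread, pool 3 was the highest for 16 and the lowest for 9, so pool 3 was at an end of the range in each of them. Of all detected genes, 34.8% were highest and 35.4% lowest in pool 3. Without pool 3, 6 of the 25 remained among the 25 of largest spread.

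After the haemoglobins, the genes high in pool 3 were of several kinds. Cxcl13, a chemokine that attracts B cells, read 372, 306 and 1220.0, and Ccl21a, a chemokine of lymphatic vessels and lymphoid stroma, read 121, 105 and 268. Gas6, the ligand of the TAM receptors that clear dying cells, read 1528, 1705 and 4026, and Trf, transferrin, read 1511, 1116 and 3231. Masp1, a protease of the lectin complement pathway, read 369.6, 206 and 673. Pool 3 was the highest for all 5 genes, and pool 2 was the lowest for all but Gas6.

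Col6a5, a collagen chain, read 154, 121 and 389.7, Cyp2e1, a cytochrome of ethanol and ketone metabolism, read 143, 157 and 375, and Pon1, paraoxonase, read 203, 203 and 486. Galnt15, an enzyme of O-glycosylation, read 273, 289.8 and 679, and Irgm2, an interferon-induced GTPase, read 312, 364 and 802. Of the MHC class I genes, H2-Q5 read 2599, 1941 and 4837. Rasgrf1, a Ras exchange factor, read 228, 339 and 593 and Slc4a4, a bicarbonate transporter, read 405, 685 and 1006, and both were lowest in pool 1 with pool 2 between. Tmem87a, a Golgi membrane protein, read 326, 261 and 830.2.

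The genes low in pool 3 included Tomm22, a receptor of mitochondrial protein import, at 484, 323 and 112, Slc25a3, the mitochondrial phosphate carrier, at 807, 874 and 367, and Has2, a hyaluronan synthase, at 634, 660.5 and 307. Tubb2b, a beta-tubulin, read 2815, 3642 and 1503. In Cdkn1c, the cell cycle inhibitor p57, and Pcsk6, a proprotein convertase, pool 2 was the high one, at 2619.7, 5742 and 2522 and 460.1, 851 and 329.6.

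**Figure D4:**
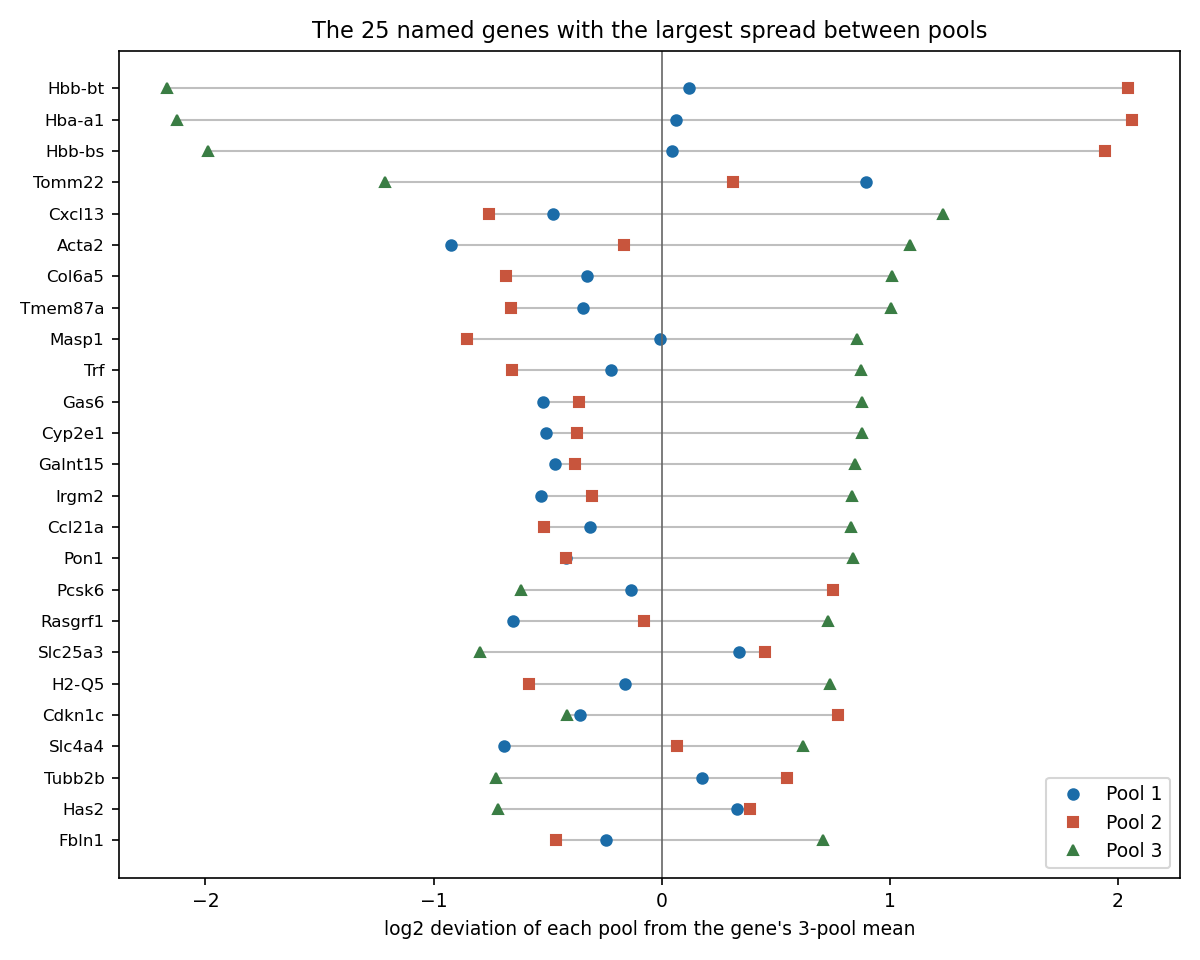
Log2 deviation of each pool from the gene's mean over the 3 pools (horizontal axis) for the 25 genes with the largest spread, ordered from the largest down. Pool 3 (triangles) lies at one end of every line, above the mean for 16 genes and below it for 9. Of all detected genes, 34.8% were highest and 35.4% lowest in pool 3.

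Several of these differences rested on 1 probe. Of the 25 genes, 15 had a single detected probe. Tmem87a had a second probe that differed by 1.12-fold, Slc4a4 one at 1.17-fold, Tubb2b one at 1.18-fold and Slc25a3 one at 1.24-fold. Acta2 had 4 detected probes, of which 2 exceeded 2-fold, and all 4 were highest in pool 3. Over the array, 2542 genes had at least 2 detected probes, and 35 of them had a probe over 2-fold. In 10 of those 35 another probe stayed under 1.2-fold, and in 4 every detected probe exceeded 2-fold. These were Col3a1, Hbb-bs, Rasgrf1 and Creld2, an endoplasmic reticulum protein read at 915, 715 and 426 and named after its values were seen.

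A case of disagreement, also chosen after its values were seen, was Atf4, the transcription factor of the integrated stress response. Its brighter probe read 3702, 2815 and 3278 and its dimmer probe 1071, 683 and 132 units, a spread of 8.10-fold. Across the 2542 genes, the deviation of a pool from the 3-pool mean correlated between the 2 brightest probes of a gene with Pearson's r of 0.35 in pool 1, 0.37 in pool 2 and 0.52 in pool 3. The probes share arrays and genes are not independent, so no p-value is given.

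At the other end, 10 genes of the brightest 10% had the smallest spread. Besides Rplp1 and Itm2b, whose values were the same in each pool, these were Atp5mpl, a small ATP synthase component, at 4196, 4203 and 4203, Lrpap1, a chaperone of lipoprotein receptors, at 2731, 2735 and 2735, and Dctn2, a dynactin subunit, at 3941, 3990.3 and 4012. Wdr1, an actin-disassembly factor, read 1875, 1895 and 1861, and Brd2, a chromatin reader, read 4732, 4685 and 4787. The ribosomal genes Rps9 and Rpl32 and the collagen Col4a2 completed the 10. Equal values arise because the normalized columns hold nearly the same set of numbers, no more than 0.446 units apart once sorted, so that 2 probes of equal rank receive the same value.

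Genes of cell signalling and defence were then described by list. Here and in the lists that follow, counts of detected genes are to be read against the 44.2% of all genes that were detected. Chemokines and cytokines were detected for all 26 genes with a probe, and 8 lay in the brightest 10%. After Cxcl1, Ccl11, eotaxin, read 7308, 7277 and 6319, Mif, macrophage migration inhibitory factor, read 6441, 6033 and 7081, and Ccl4, a chemokine of activated leukocytes, read 4274, 5072 and 3409. Il6, interleukin 6, read 565, 388 and 299, highest in pool 1 and lowest in pool 3. Complement genes were detected for 10 of 13. C4b, a component of the classical pathway, read 3334, 2857 and 4387, Cfp, properdin, 3050.3, 3099 and 3347, and C2 2808, 2484 and 3619, each highest in pool 3. Cfb, factor B, read 378, 223 and 330.3. The median deviation of the complement list was 0.12, -0.24 and 0.12, and with pool 2 left out the value of pool 3 was -0.021. Of the 10 complement genes, 6 were lowest in pool 2 (31.5% of all detected genes), 3 in pool 3 and 1 in pool 1. C1qa, C1qb and C1qc, each lowest in pool 2, are also in the macrophage list, so the 2 lists are not separate.

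Interferon-response genes were detected for 15 of 18, and 11 were highest in pool 3 (34.8% of all detected genes), while 10 were lowest in pool 2 (31.5% of all). The antiviral membrane proteins Ifitm3, Ifitm2 and Ifitm1 read 17186, 14228 and 14371, then 13766, 11972 and 9758, then 10091, 9191 and 10689, and only Ifitm1 of these had pool 3 highest. Irf1, an interferon regulatory factor, read 5145, 4635 and 6786, Ifit3, an RNA-binding effector, 458, 481 and 763, and Ifi27l2a, a mitochondrial interferon-induced protein, 2413, 1515 and 3232. Of 10 MHC class I pathway genes, 9 were detected, 8 of them highest in pool 3 and 7 lowest in pool 2, to be read against the same 34.8% and 31.5%. B2m, the shared light chain, read 14834, 12779.5 and 15812, H2-D1, a classical heavy chain, 5124, 4524 and 5723, and H2-T23, the non-classical Qa-1, 2361, 2348 and 3796. H2-K1, the other classical heavy chain, read 1811, 1079 and 1149 on its brighter probe and 127, 119 and 591 units on a dimmer one, so its pools were in a different order by probe. Class I heavy chains are near-identical in sequence, and their probes may share signal.

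Immediate early genes, which cells switch on within minutes of a stimulus, were bright. Of 25 with a probe, 22 were detected and 12 lay in the brightest 10%. After Egr1, Ier3, a regulator of survival, read 11788, 13151 and 10178, Fos, the AP-1 subunit, 11408, 11699 and 9690.4, and Socs3, the feedback inhibitor of cytokine signalling, 8907, 9542 and 11355. Egr3 read 712, 850.1 and 441, with pool 3 lowest, the opposite of Klf2. No unsorted or undigested tissue was analysed here.

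Heat shock genes were detected for 11 of 13, and 8 were highest in pool 1, where 28.6% of all detected genes were. Hspa8, the constitutive Hsp70, read 8756, 6495 and 8010.3, Bag3, its co-chaperone, 7044, 6086 and 6356, and Hspb8, a small heat shock protein, 6076, 5595 and 5190.0. Hspa1a, the inducible Hsp70, read 1519, 1618 and 1852, and Hsph1, a nucleotide exchange factor, 797, 727 and 467. Unfolded protein response genes were detected for 13 of 16, of which 10 were highest in pool 1 (28.6% of all detected genes) and 8 lowest in pool 3 (35.4% of all). Herpud1, of endoplasmic reticulum degradation, read 3553, 3303 and 2705, Xbp1, the spliced transcription factor, 3331, 2927 and 2904, and Hsp90b1, the luminal chaperone, 3323, 2721 and 2846. Dnajb9, a luminal co-chaperone, read 1386, 1163 and 907, and Pdia6, a disulfide isomerase, 294, 216 and 150.1, each highest in pool 1 and lowest in pool 3.

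Antioxidant and metal-handling genes were detected for 20 of 21, with 12 in the brightest 10%. Gpx1, the cytosolic glutathione peroxidase, read 12017, 11250.4 and 12719.7, and Ftl1, the ferritin light chain, 8588, 6786 and 7258. Gpx3, the secreted peroxidase, read 5648, 5296 and 10055, and Cat, catalase, 199, 166 and 331, and both stood highest in pool 3, by 1.90-fold and 2.00-fold over the lowest pool.

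All 12 genes of the insulin-like growth factor system were detected. The binding proteins Igfbp7, Igfbp4, Igfbp5 and Igfbp6, which sequester or present IGF, were the brightest, with Igfbp7 at 10925, 9838 and 10848 and Igfbp4 at 9593, 11872 and 8154. The receptor Igf1r was dim at 200.1, 255 and 329.7, and Igfbp3 read 296, 203 and 389. Both were highest in pool 3, as were 8 of the 12 (34.8% of all detected genes), and 6 of the 12 were lowest in pool 1, where 33.1% of all detected genes were.

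Secreted Wnt inhibitors were detected for 6 of 10 (60.0%, against 44.2% of all genes). They were led by Sfrp1 at 1131, 1155 and 1944 and Sfrp2 at 495, 441 and 409.9, which bind Wnt ligands. Of 18 TGF-beta and BMP genes, 13 were detected (72.2%, against the same 44.2%). The receptor Tgfbr2 read 5165, 3832 and 4817, Bmp1, a procollagen protease, 4242, 4950.0 and 4128, and Fstl1, a secreted antagonist, 2904, 2726 and 2857. The ligand genes Gdf10 and Gdf3 read 2293, 2604 and 4488 and 461, 478 and 244, with pool 3 highest for the first and lowest for the second. Of 12 FGF genes, 8 were detected (66.7%, against the same 44.2%). Fgf10, a stromal ligand that promotes preadipocyte growth, read 2397, 2148 and 2578, Fgf7, keratinocyte growth factor, 489, 436 and 421, and the receptor Fgfr2 399.9, 356 and 699. Fgf21, the metabolic hormone, was dim at 185, 266 and 117 and differed 2.27-fold, with pool 2 highest.

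Angiogenic ligands and neuropilins were detected for 9 of 13 (69.2%, against 44.2% of all genes). Angptl4, an inhibitor of lipoprotein lipase, read 3969, 3229 and 4339, Nrp1, a VEGF co-receptor, 1792, 2009.9 and 2231, and Vegfa, the main endothelial growth factor, 1214, 908 and 1018. Angpt2, which destabilises vessels, read 464, 892 and 616, highest in pool 2. Retinoid genes were detected for 7 of 12 (58.3%, against the same 44.2%). Rarres2, which encodes the adipokine chemerin, read 9191, 9801 and 8886, and Rbp7, a retinol-binding protein of capillary endothelium and fat, 731, 811 and 1477, with pool 3 highest by 2.02-fold over pool 1.

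Of 27 genes of positional identity with a probe, 16 were detected (59.3%, against 44.2% of all genes). The homeobox genes Hoxc6, Hoxc9 and Hoxa5, which mark position along the body axis, read 1323, 1581 and 1521, then 584, 839 and 784, then 569, 505 and 837. Hoxa7 read 201, 172 and 308 and Meis2, a Hox co-factor, 648, 650.2 and 678. The depots were combined before the array, so no gene can be assigned to one of them. Of 23 nuclear receptors, 11 were detected (47.8%, near the 44.2% of all genes). Of these, 0 exceeded 1.5-fold, where 5.69% of all detected genes did. After Nr1h3, Rxrb and Pparg, Ppard, the related fatty acid receptor, read 361, 365 and 349.6, and Esr1, the oestrogen receptor, 246, 271 and 347.

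Clock genes were detected for 10 of 16 (62.5%, against 44.2% of all genes). Bhlhe40, a repressor of the clock, read 3014, 2514 and 1845, highest in pool 1, and Clock 665, 669 and 575. Per1, a light- and hormone-induced period gene, read 274, 232 and 506, with pool 3 highest by 2.18-fold, whereas Per2 read 326, 355 and 365 and differed 1.12-fold. The labels give a light cycle but no hour of collection.

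Genes of proliferation were dim, with a median intensity of 148 units over the 16 detected of 25, against 243.5 for all detected genes. Apart from Cdkn1c, the brightest were Cdkn1a, the cell cycle inhibitor p21, at 2826, 2413 and 1759.6, and the D-type cyclins Ccnd2 and Ccnd1, at 797, 981 and 1035 and 396, 299 and 416. Of the 16, 12 were lowest in pool 3, where 35.4% of all detected genes were. These 12 include the inhibitors Cdkn1a and Cdkn1c, so the count does not cover genes that promote division alone. Genes of DNA replication and mitosis fell on both sides of the detection threshold. Mcm5, part of the replicative helicase, read 319, 399 and 293, Tyms, thymidylate synthase, 222, 258 and 198, and Birc5, survivin, 158, 183 and 127, and Top2a, Cdk1, Cdc20, Plk1, Aurka, Pcna, Mcm2, Mcm6 and Tk1 were also detected in all 3 pools, with medians of at most 163.5 units. Ccna2, Ccnb2, Bub1 and Ube2c were detected in 0 pools. The members named here beyond the brightest 4 were chosen after their values were seen.

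Ribosomal protein genes were detected for 23 of 27, and 20 lay in the brightest 10%. Of the 23, 0 exceeded 1.5-fold, where 5.69% of all detected genes did. Their median SD was 0.083 on the log2 scale, against 0.13 for all detected genes, and that of the oxidative phosphorylation subunits was 0.11. Oxidative phosphorylation subunits were detected for 30 of 32, with 1 over 1.5-fold, Cox6c, at 1799, 1029.8 and 1319. Atp5b, the catalytic subunit of ATP synthase, read 13395, 15031 and 12463, and Ndufa13, a complex I subunit, 8285, 7841 and 8228. Glycolytic genes were detected for 13 of 14, with a median SD of 0.15, and with Tpi1, triose phosphate isomerase, at 2956, 3468 and 3334 and Gapdh at 2866, 3019.8 and 2489.8. Pdk4, which blocks pyruvate entry into mitochondria, read 198, 162 and 316, highest in pool 3.

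Lipid synthesis genes were detected for 14 of 22 (63.6%, against 44.2% of all genes). Of these, 0 exceeded 1.5-fold, where 5.69% of all detected genes did. Acly, which makes cytosolic acetyl-CoA, read 3221, 3432 and 2911, Fads1, a desaturase of polyunsaturated fatty acids, 2517, 2779 and 2648, and Scd1, the stearoyl-CoA desaturase, 1256, 899 and 1076. Fasn, Acaca and Gpam were detected in 0 pools. All 23 cytoskeletal genes with a probe were detected, 17 in the brightest 10% and 14 lowest in pool 3, where 35.4% of all detected genes were. Actb, beta-actin, read 15989, 15921 and 16527, S100a11, a calcium-binding protein, 15812, 16158 and 12812, Anxa2, annexin A2, 15921, 14267 and 11972, and Tuba1b, an alpha-tubulin, 14109.9, 12925 and 12779.5. Lmna, the nuclear lamin, read 6139.7, 6777 and 4021.

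**Figure D5:**
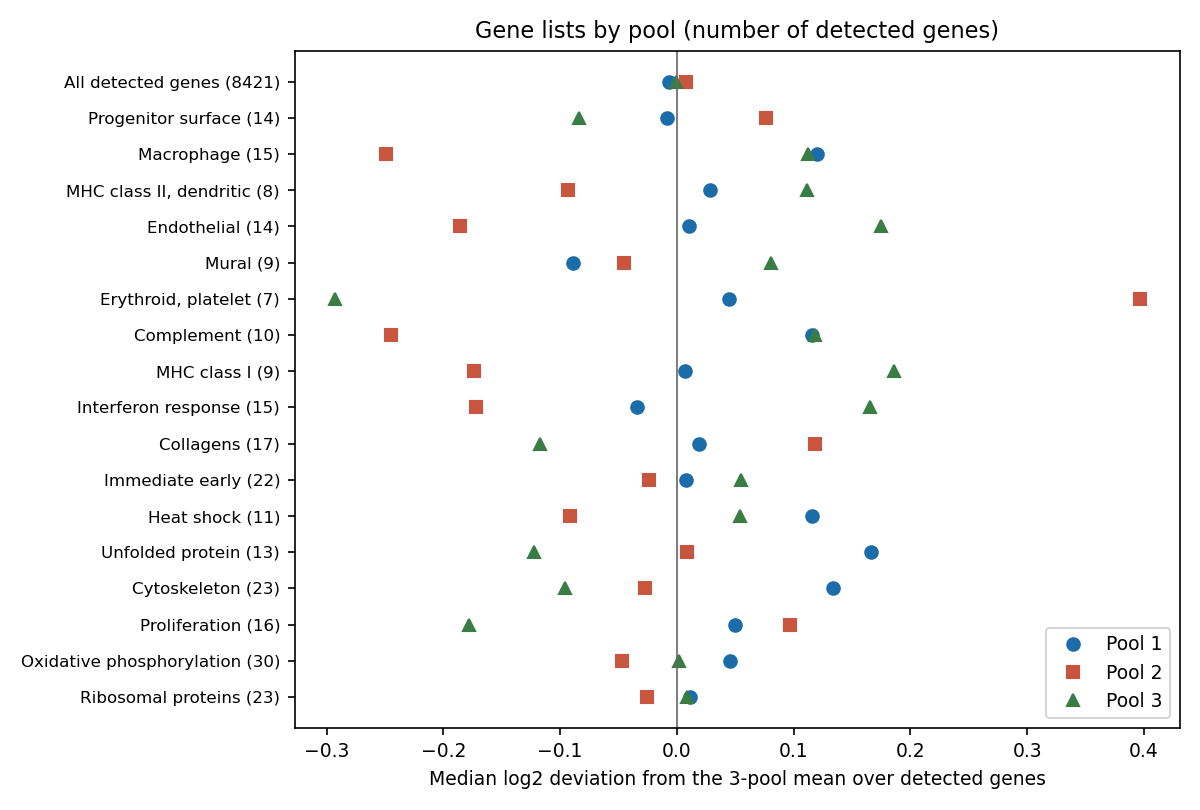
Median log2 deviation of each pool from the 3-pool mean (horizontal axis) over the detected genes of selected lists and of all genes, with the number of detected genes in brackets. Pool 2 (squares) is the lowest for the macrophage, complement, endothelial and MHC class I lists and the highest for the erythroid and platelet list. All 3 pools lie near 0 for the ribosomal list. The macrophage and complement lists share C1qa, C1qb and C1qc.

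Set side by side, the median deviation of a pool depended on the list. The median deviations of pools 1, 2 and 3 were 0.01, -0.19 and 0.17 for endothelial markers, 0.0068, -0.17 and 0.19 for MHC class I genes, -0.03, -0.17 and 0.17 for interferon-response genes, 0.05, 0.40 and -0.29 for erythroid and platelet genes, 0.02, 0.12 and -0.12 for collagens and 0.05, 0.10 and -0.18 for proliferation genes. The same values for all detected genes were -0.0067, 0.0074 and -0.00085. Of the 47 lists, 14 had a member over 2-fold. Most lists hold many genes, so this share of lists cannot be compared with the 0.701% of all detected genes that exceeded 2-fold. With a pool left out, 12 lists had such a member without pool 1, 7 without pool 2 and 2 without pool 3. Some genes are in more than 1 list, and the proliferation list includes the cell cycle inhibitors Cdkn1a and Cdkn1c. How far depth, cell make-up or handling of a pool contributed to these values was not tested.

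The detection threshold itself passed through dim probes. Just inside it were probes of C8b, Eya1 and Gask1a, with a highest detection p-value of 0.0491 and median intensities of 109, 117 and 107 units. Just outside were probes of Bmpr2, Btla and Dgkq, at 0.0502 and medians of 103, 107 and 103 units. The 3 inside and the 3 outside overlapped in intensity.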

How the data were processed

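RNA of 3 untreated pools was measured on 1 Illumina bead array each. The authors deposited a non-normalized intensity table, with no background subtracted as its values show, and a normalized intensity table. Beside each intensity they deposited a detection p-value. The scanner software and the normalization method were not given in the sources used here. The deposited series table equals the normalized table, with a largest difference of 0, and 23 detection p-values differed from the non-normalized table, by at most 0.00107, changing 0 calls. The 15 per-sample columns of the rosiglitazone arrays were not used.

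The normalized values were used as deposited, with no further background correction (Python 3.11.15, numpy 2.4.6, pandas 2.3.3, figures with matplotlib 3.10.9). A probe was kept if its detection p-value lay below 0.05 on all 3 arrays. Symbols were read from the array's platform annotation, which gave 1 symbol to 34885 probes, several to 18 and none used here to 10378; 34807 matched a RefSeq gene table by Entrez number, which changed 0 symbols. The brightest kept probe stood for a gene. Spread is the SD of log2 intensity over the 3 pools, and a gene list is described by counts and by the median deviation of each pool. Total intensity ranged from 9478692 to 14831319 units, and the number of arrays limits the precision. The pools are separate cohorts per the labels, each group has 1 array per pool, and no test was made. Labels and column names identify no bead chip or scan, so no batch could be examined.

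Named genes were the 25 brightest, the 25 with the largest spread, the 10 of the brightest 10% with the smallest spread, the 4 brightest members and the 2 of largest spread in each list, listed cell type markers, Pparg, Fabp4, Cd36, Dlk1 and Zfp423, and the 3 probes on each side of the detection threshold. The members, lists and settings were chosen with earlier results of these data known. Promoter windows are those of RefSeq. Alternatives covered the background correction (normexp with an offset of 16 and quantile normalization, limma 3.58.1 in R 4.3.3), other scalings, the detection filter, a pseudocount of 16, averaging of probes, the measure of spread and each array left out. The code was tested on simulated data.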

Additional observations from a re-analysis of the deposited data

How the results depend on the processing

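The number of detected probes and genes depended little on the settings tried: 11732 probes and 7529 genes at a detection p under 0.01, 15941 and 9548 with detection in at least 2 of 3 pools, and 13887 to 15014 and 8596 to 9114 with 1 pool left out. Normexp background correction and quantile normalization, changed together, gave 559 probes over 2-fold, a median spread of 0.21, a probe-pair r of 0.26 in pool 2, 29 lists with a member over 2-fold, and 14 of the 25 genes of largest spread shared. Median scaling gave a probe-pair r of 0.46 in pool 1. With no scaling these were 2470 probes, a median spread of 0.38, r of 0.46 in pool 1 and 43 lists; there the median of all genes shifted by 0.15, -0.40 and 0.24 log2 units, and list values were taken relative to it. Without the detection filter the median spread was 0.071 and r was 0.20, 0.23 and 0.36. A threshold of 1.5-fold, added after seeing the data, gave 786 probes and 38 lists. With each pool left out in turn, probes over 2-fold ranged from 20 to 83, median spread from 0.09 to 0.10 and lists from 2 to 12. Shared genes ranged from 23 to 24 among the brightest and from 6 to 20 among those of largest spread. The lowest counts of probes, lists and shared genes were those without pool 3, and 7 lists remained without pool 2. The deviations of 2 remaining pools are exact opposites, so r is the same for both by construction. It was 0.48 without pool 1, 0.47 without pool 2 and 0.26 without pool 3, and these values cannot compare single pools. Of 1266 list deviations recomputed, 163 had another sign, in 158 of which the value was within 0.1 log2 units of 0; the other 5 were all of pool 3, which went to -0.024 for mast cell genes and -0.0012 for epithelial genes without the detection filter, and with a pool left out ranged from -0.015 to 0.13 for macrophage, -0.012 to 0.39 for epithelial and -0.021 to 0.21 for complement genes, each lowest without pool 2. A total of 1056 list deviations moved by less than the spread and 205 others by more; of the fold differences of named genes, 395 and 104. The causes were not tested beyond the construction of each setting. At a detection p under 0.01 the B cell list had no member. No paired analysis was possible because only 1 group was described. Signal near the background limits what dim probes can show.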
